A study of Mus musculus with 10 samples.

Results

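The YAP/TEAD pathway was followed here through 9 genes, picked by name as Hippo pathway factors and targets: the coactivator Yap1, its DNA-binding partner Tead1, the kinase Lats2 and the target genes Ccn1, Ccn2, Ankrd1, Amotl2, Ajuba and Axl. They were chosen with earlier results of these data known. These were 9 of the 39056 genes in the deposited table of counts, and all 9 passed the filter on low counts. RNA of 10 mouse livers or liver tumours had been sequenced as 3' tags, from C57BL/6 mice that were either wild-type (WT) or MLK3-KO (KO), lacking the mixed-lineage kinase MLK3, which acts upstream of the stress kinase JNK. The groups were liver of WT mice on plain water (2 libraries), liver of KO mice on plain water (2), tumour of WT mice given carcinogen (3) and tumour of KO mice given carcinogen (3). The series calls the replicates biological. Treated mice were males injected once with the DNA-damaging agent DEN (5 µg per g body weight, intraperitoneal) when 2 weeks old, and given the tumour promoter PB (0.05%) in drinking water from 1 week later. All mice were 11 months old, and controls were matched for sex and age. The labels name treated tissue tumour while the extraction text names treated liver, and every tumour came from a treated mouse and every liver from a mouse on water, so tumour and treatment cannot be told apart. How the KO allele was made, and which cells lack it, was not given in the sources used here. Of the 9 genes Ccn2 alone passed the test described below: WT tumours exceeded WT liver in it, and KO tumours fell below WT tumours.

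In the Hippo pathway, kinases of the MST and LATS families phosphorylate the coactivators YAP and TAZ, which are then held in the cytoplasm or degraded. When the kinases are off, YAP and TAZ enter the nucleus and switch on genes through TEAD factors, which bind DNA. In mouse liver the pathway restrains organ size, and its loss is known to give enlarged livers and tumours. Phosphorylation and nuclear entry leave no direct trace in a table of RNA counts, so the values below describe transcripts only.

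TEAD factors recognise GGAATG, read on either strand. Because 6 of the members are textbook targets, the sequences around their starts were searched in RefSeq windows on GRCm38.p6 that run from 250 bases before to 50 bases after each gene's start. Windows of 7 of the 9 members were present (8 windows), and those of all 7 held GGAATG or its reverse complement CATTCC in at least 1 window, beside 14.7% of all 32851 windows. The stretches of 5 targets are printed on the strand of the gene, 5′ to 3′, with the motif in capitals, to show where these letters lie in targets whose transcripts are given below. They are Ccn1 (chr3:145650063-145650108, minus strand, motif from base -103 relative to the start), Ankrd1 (chr19:36119942-36119987, minus strand, from -123), Amotl2 (chr9:102717719-102717764, plus strand, from -65), Ajuba (chr14:54577822-54577867, minus strand, from -186) and Axl (chr7:25788941-25788983, minus strand, from -233).
Ccn1: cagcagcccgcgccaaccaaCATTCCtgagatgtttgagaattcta
Ankrd1: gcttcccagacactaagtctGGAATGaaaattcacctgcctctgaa
Amotl2: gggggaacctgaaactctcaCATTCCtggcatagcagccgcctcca
Ajuba: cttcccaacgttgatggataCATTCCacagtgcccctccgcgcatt
Axl: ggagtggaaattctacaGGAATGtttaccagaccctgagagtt
Positions count from the RefSeq start, and by the GENCODE positions given below the stretches of Ankrd1 and Amotl2 lie inside the gene, whose GENCODE model starts further upstream. Ajuba and Ankrd1 each held another copy of the letters in the same window, Yap1 held 1, and Lats2 held 1 after its start. The AP-1 motif TGANTCA, also searched on both strands, was in none of the 8 member windows and in 7.81% of all windows. A match is a run of letters and not a measured binding site, and no binding was measured in this series.

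Levels are CPM, counts divided by the size of each library after scaling by TMM factors, log2 fold changes carry standard errors (SE) and adjusted p-values are Benjamini-Hochberg values over the 15811 genes tested with edgeR's quasi-likelihood test, with a threshold of 0.05. Libraries held 12408749 to 18081487 counts. Map3k11, the gene of MLK3, stood at 7.92 and 14.9 CPM in the WT livers, 5.38 and 5.81 in the KO livers, 12.2, 9.54 and 14.3 in the WT tumours and 10.0, 10.3 and 5.84 in the KO tumours, and passed the test in no comparison; because the deleted part of the gene is not given and the tags come from the 3' end, this checks neither the knockout nor the labels. KO tumour replicate 2 stood apart from the other tumours: its Afp, the fetal liver protein that marks such tumours, was 3.84 CPM, beside 146 to 534 in the other 5 tumours and 0.283 to 6.35 in the livers. Hepatocyte markers were abundant in every library, with Alb between 21397 and 62170 CPM.

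No difference of Yap1, the coactivator itself, passed the test. It stood at 127 and 104 CPM in the WT livers, 94.0 and 78.5 in the KO livers, 97.1, 95.7 and 81.4 in the WT tumours and 72.5, 79.1 and 79.5 in the KO tumours. Its highest libraries were the 2 WT livers, both above every other library, and KO tumours lay just below the lowest WT tumour. The log2 fold change was -0.34 (SE 0.21, adjusted p = 0.38) between WT tumours and WT liver, -0.42 (SE 0.24, adjusted p = 0.72) between KO and WT liver and -0.25 (SE 0.19, adjusted p = 0.66) between KO and WT tumours. The 95% interval of the difference between KO and WT tumours ran from -0.66 to 0.16 on the log2 scale. Yap1 (chr9:7931999-8004596, minus strand, GRCm38) overlaps Gm20416 on the other strand, and whether the authors' counting used strand was not given in the sources used here.

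Tead1, a DNA-binding partner of YAP, passed the test in no comparison. It lies on chr7:112679318-112906807 (plus strand), where its start overlaps 2310014F06Rik on the other strand. It stood at 12.4 and 7.19 CPM in the WT livers, 5.49 and 4.82 in the KO livers, 25.1, 33.6 and 11.0 in the WT tumours and 9.71, 10.1 and 7.35 in the KO tumours. WT tumour 3 fell within the range of WT liver, while the KO tumours were all above the KO livers and below the WT tumours. The unadjusted p was 0.032 between WT tumours and WT liver (log2 fold change 1.24, SE 0.52, adjusted p = 0.18) and 0.0097 between KO and WT tumours (-1.36, SE 0.46, adjusted p = 0.13), so neither passed edgeR's test over all genes. In KO tumours against KO liver the value was 0.81 (SE 0.52, adjusted p = 0.62).

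Lats2, the kinase that phosphorylates YAP and is itself a YAP target, had no difference past the test. Its levels were 18.5 and 15.5 CPM in the WT livers, 18.3 and 24.9 in the KO livers, 29.0, 17.5 and 20.4 in the WT tumours and 28.7, 26.5 and 18.2 in the KO tumours, and the groups overlapped in each comparison. The largest of its log2 fold changes in the 4 comparisons was 0.39 (SE 0.35, adjusted p = 0.58), in WT tumours against WT liver. Lats2 (chr14:57689662-57758388, minus strand) overlaps the protein-coding gene Gm49361 on the same strand, so its count is uncertain.

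**Figure D1:**
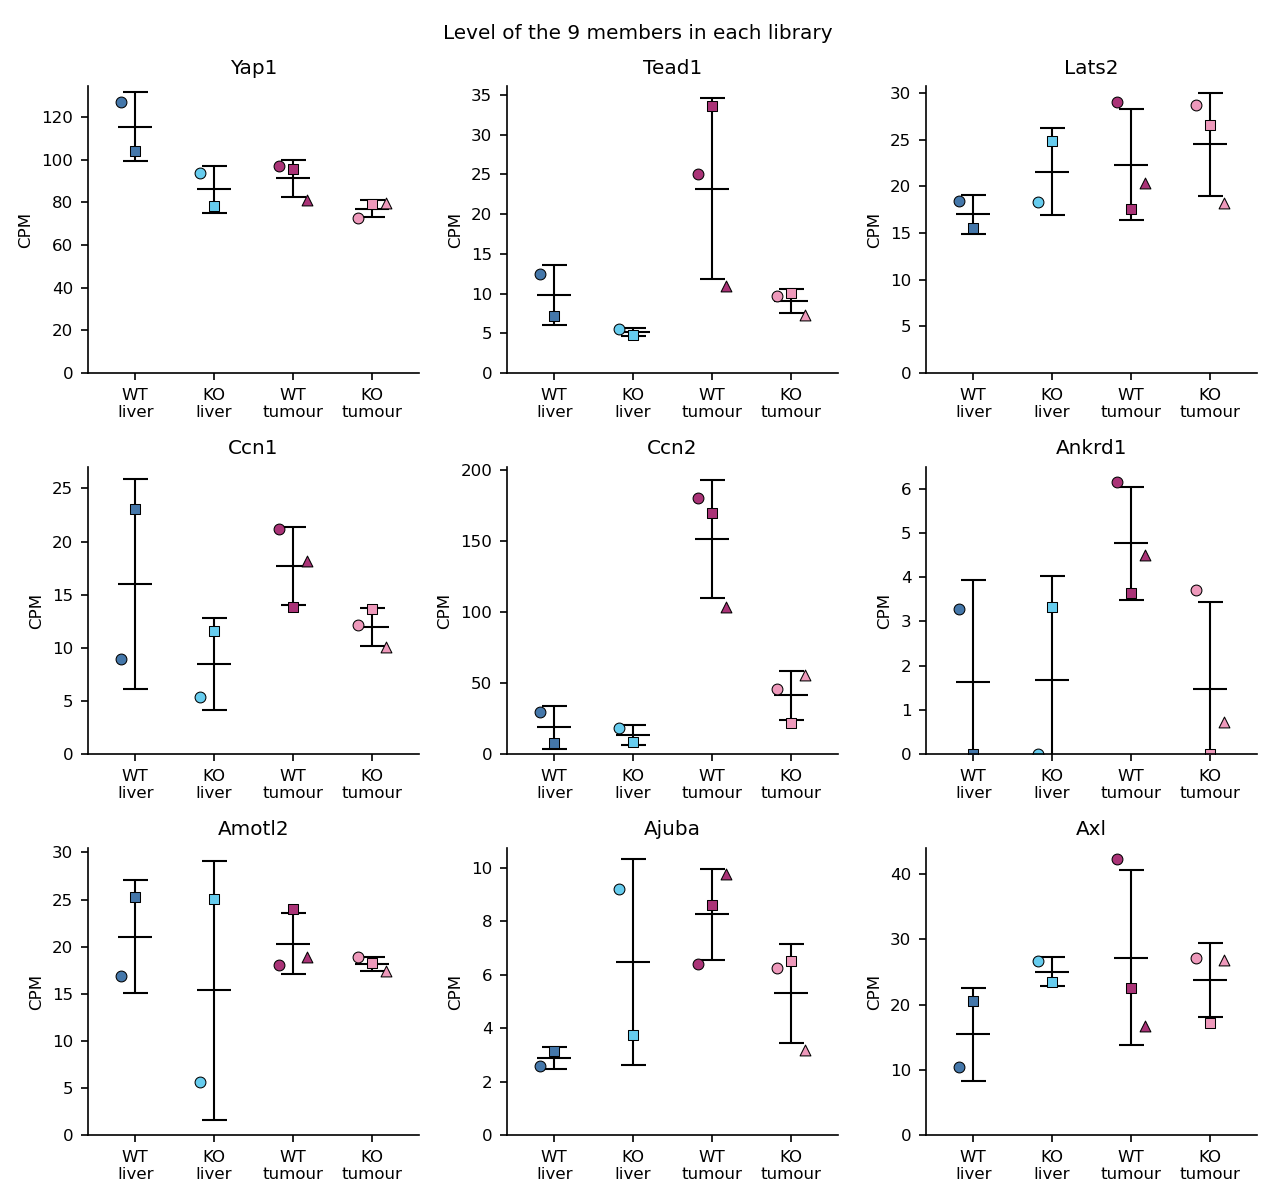
CPM (vertical axes, from 0) of the 9 members in each library by group; circles, squares and triangles are replicates 1, 2 and 3, and black marks give the mean with its SD. Ccn2 in the 3 WT tumours (104 to 180 CPM) lies above every other library (8.07 to 55.9), whereas Yap1, Lats2 and Amotl2 stay within narrow ranges apart from KO liver 1 for Amotl2.

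Ccn2 was the member that passed the test. It encodes connective tissue growth factor, a secreted matrix-associated protein that is among the most used readouts of YAP activity, and it lies on chr10:24595442-24598683 (plus strand), where it overlaps Gm15270 on the other strand. Its counts were 470 and 128 in the WT livers, 323 and 117 in the KO livers, 3460, 2328 and 1618 in the WT tumours and 595, 317 and 775 in the KO tumours. In CPM this was 29.5 and 8.07, 18.5 and 8.29, 180, 170 and 104, and 45.9, 22.1 and 55.9. Every WT tumour was above every other library, and every KO tumour was above both KO livers, but KO tumour 2 lay below WT liver 1.

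Ordered by mean level, Ccn2 stood at 13.4 ± 7.2 CPM in KO liver (SD, n = 2), 18.8 ± 15.2 in WT liver (n = 2), 41.3 ± 17.3 in KO tumours (n = 3) and 151 ± 41.4 in WT tumours (n = 3). The first 2 groups overlap, as do WT liver and KO tumours. In WT tumours Ccn2 was 8.04-fold higher than in WT liver (log2 fold change 3.01, SE 0.55, adjusted p = 0.0028). This held under all 17 alternatives run, with log2 fold changes from 2.35 to 4.22 and adjusted p-values up to 0.018.

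In KO tumours Ccn2 was 3.66-fold lower than in WT tumours (-1.87 on the log2 scale, SE 0.45, adjusted p = 0.025). That call depended on single libraries: it was lost without WT tumour 1 (adjusted p = 0.099), WT tumour 2 (0.093), KO tumour 1 (0.067), KO tumour 2 (0.12) or KO tumour 3 (0.051), although the log2 fold change stayed between -2.15 and -1.57. Lower calls over all genes also fell, from 201 to 134, 91, 164, 114 and 110 in those fits. Between KO tumours and KO liver the value was 1.62 (SE 0.52, adjusted p = 0.29), or 1.92 without KO tumour 2 (adjusted p = 0.10). The 2 tumour-to-liver differences were compared directly in the interaction, which gave -1.39 (SE 0.70, adjusted p = 0.44), so the difference in KO mice was not shown to be smaller than that in WT mice. With no filter on low counts beyond 1 count, both of these passed (adjusted p = 2.2e-05 and 0.031).

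Ccn1, the close relative of Ccn2 also called CYR61 (chr3:145646976-145649981, minus strand), had no difference past the test. Its levels were 8.99 and 23.0 CPM in the WT livers, 5.38 and 11.5 in the KO livers, 21.2, 13.8 and 18.2 in the WT tumours and 12.1, 13.7 and 10.1 in the KO tumours. WT tumours lay within the range of the 2 WT livers (log2 fold change 0.15, SE 0.49, adjusted p = 0.92). KO tumours were all below WT tumours, by a margin of 13.7 against 13.8 CPM at the closest, and the difference did not pass the test (-0.57, SE 0.44, adjusted p = 0.65).

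Ankrd1, a nuclear ankyrin repeat protein and a sensitive YAP target, varied widely between replicates at a low level (chr19:36111961-36120099, minus strand). Its counts were 52 and 0 in the WT livers, 0 and 47 in the KO livers, 118, 50 and 70 in the WT tumours and 48, 0 and 10 in the KO tumours. The 3 libraries at 0 counts allow up to 0.171 to 0.210 CPM each if 3 independent reads are taken as the limit, which covers counting error only. WT tumours (6.15, 3.64 and 4.49 CPM) were above both WT livers (3.27 and 0), but the replicates of each liver group were so unlike that the log2 fold change was 1.54 with an SE of 2.08 (adjusted p = 0.75). No difference of this gene was detectable at this depth and spread.

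Amotl2, an angiomotin-like junction protein that binds YAP and is also its target (chr9:102716672-102733418, plus strand), stood at 16.8 and 25.3 CPM in the WT livers, 5.66 and 25.1 in the KO livers, 18.0, 24.0 and 18.9 in the WT tumours and 18.9, 18.3 and 17.4 in the KO tumours. Apart from KO liver 1 its libraries spread from 16.8 to 25.3 CPM, and the log2 fold change was -0.05 (SE 0.48, adjusted p = 0.98) between WT tumours and WT liver and -0.16 (SE 0.43, adjusted p = 0.95) between KO and WT tumours.

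Ajuba, a LIM protein that holds back LATS kinases (chr14:54567472-54577558, minus strand), was lowest in WT liver, at 2.58 and 3.15 CPM, beside 9.21 and 3.75 in KO liver. In tumours it was 6.41, 8.59 and 9.75 in WT mice and 6.24, 6.49 and 3.17 in KO mice. The WT tumours and the KO livers were thus all above the WT livers, and the tumours of the 2 genotypes overlapped. The log2 fold changes were 1.52 (SE 0.74, adjusted p = 0.26) in WT tumours against WT liver and 1.18 (SE 0.78, adjusted p = 0.75) in KO against WT liver, and neither passed.

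Axl, a receptor tyrosine kinase (chr7:25757273-25788705, minus strand), stood at 10.4 and 20.5 CPM in the WT livers, 26.6 and 23.4 in the KO livers, 42.3, 22.5 and 16.7 in the WT tumours and 27.2, 17.2 and 26.9 in the KO tumours. KO livers were above WT livers and all other comparisons overlapped. WT tumour 1 was the highest library, and the difference between WT tumours and WT liver did not pass (log2 fold change 0.82, SE 0.43, adjusted p = 0.30). KO and WT tumours differed by -0.19 (SE 0.38, adjusted p = 0.92).

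Counted together, 1 of 9 members passed edgeR's test in WT tumours against WT liver (Ccn2, higher), where 8.34% of all genes tested did, 3.64% being higher and 4.7% lower. At an unadjusted p under 0.05 there were 2 (Ccn2 and Tead1), beside 21.4% of all genes. Libraries did not overlap for 3 higher members (Ccn2, Ankrd1, Ajuba) and 1 lower (Yap1), beside 19.6% and 17.6% of all genes. The members' median log2 fold change was 0.82, against 0.09 over all genes. Because the members were chosen with earlier results of these data known, this is not an independent comparison. Scaling by total counts alone raised the median of all genes by 0.27 in this comparison and turned the split of all calls from 575 higher and 743 lower to 920 and 496. Under it Ccn2 was still the member that passed, Yap1 stood at -0.07 and Amotl2 at 0.20.

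In KO tumours against KO liver no member passed, by edgeR or by DESeq2, where 0.0759% of all genes passed edgeR's test. At an unadjusted p under 0.05 there was 1 member (Ccn2), beside 9.61% of all genes. Without KO tumour 2 all calls in this comparison went from 12 higher and 0 lower to 189 and 13, and the members' count was still 0. Ccn2 and Tead1 were higher without overlap, as were 14.3% of all genes. The members' median was 0.18, against 0.06 over all genes.

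KO and WT liver, compared to see what loss of MLK3 does without carcinogen, gave no member past the test in edgeR or DESeq2 and none at an unadjusted p under 0.05, beside 0.00632% and 7.28% of all genes in edgeR. Ajuba and Axl were higher and Yap1 and Tead1 lower without overlap, each direction holding for 15.5% of all genes. With 2 libraries in each group this comparison is the least precise of the 4, and Ccn2 in it changed sign when 1 library was left out (-1.19 to 0.73).

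Between KO and WT tumours 1 of 9 passed (Ccn2, lower), where 4.52% of all genes did, 3.25% being higher and 1.27% lower. At an unadjusted p under 0.05 there were 2 (Ccn2 and Tead1), beside 14.9%. Without KO tumour 2 the count of members was 0, and all calls went from 514 higher and 201 lower to 345 and 114. The estimate was negative for 8 of 9 members, all but Lats2, and 4 were lower without overlap (Yap1, Tead1, Ccn1 and Ccn2) beside 10.9% of all genes, although for Yap1, Tead1 and Ccn1 the gap between groups was under 2 CPM. The median was -0.57, against -0.03 over all genes. In the interaction no member passed in edgeR or DESeq2 and none had an unadjusted p under 0.05, where 1.59% and 12.7% of all genes did in edgeR. The comparisons of tumours with liver and of KO with WT share libraries, so their values are not independent of each other.

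**Figure D2:**
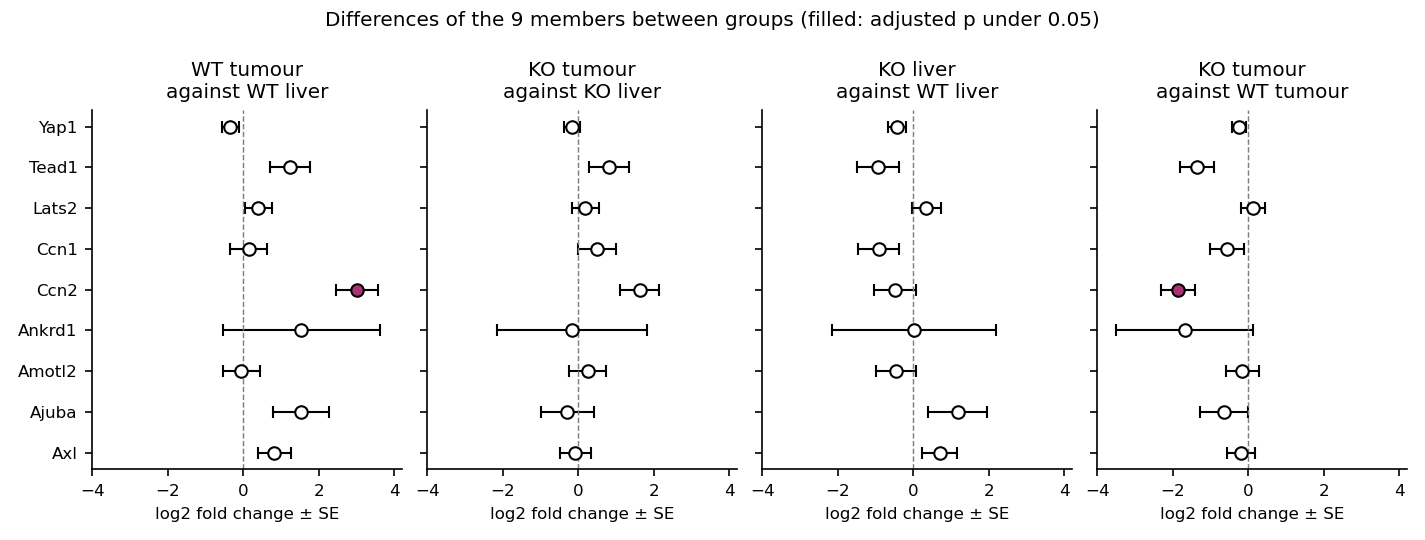
Log2 fold change (horizontal axes) with its SE for the 9 members in the 4 comparisons; filled points passed edgeR's test. Ccn2 is the filled point, at 3.01 in WT tumours against WT liver and at -1.87 in KO against WT tumours, and the error bars of Ankrd1 are the widest.

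Ccn2 is also made by activated stellate cells, the collagen-producing cells of liver, so markers of other cell types were read beside it. Acta2, the smooth muscle actin of activated stellate cells, stood at 3.14 and 5.55 CPM in the WT livers, 2.80 and 7.65 in the KO livers, 65.7, 17.9 and 21.9 in the WT tumours and 8.94, 0.558 and 3.89 in the KO tumours. As with Ccn2, every WT tumour was above every other library. It was lower in KO than in WT tumours (-2.98 on the log2 scale, SE 0.78, adjusted p = 0.041), a call lost without WT tumour 1 (0.28), WT tumour 3 (0.062), KO tumour 2 (0.088) or KO tumour 3 (0.17), with a mean of at least 1 CPM as the filter (0.051) or with only the groups compared (0.068), and the difference between WT tumours and WT liver missed the threshold (3.02, SE 0.92, adjusted p = 0.056).

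Of the 10 stellate cell and fibroblast markers 0 were higher and 1, Dcn, was lower in WT tumours against WT liver, beside 3.64% and 4.7% of all genes. Their summed level was 405 to 444 CPM in WT liver, 314 to 387 in KO liver, 275 to 653 across WT tumours and 296 to 516 across KO tumours. Dcn, the matrix proteoglycan decorin, made up 278 and 330 CPM of that sum in the WT livers. The collagen Col1a1 stood at 9.49 and 4.67 CPM in the WT livers, 3.66 and 5.60 in the KO livers, 85.6, 20.4 and 39.5 in the WT tumours and 35.8, 5.24 and 4.11 in the KO tumours. Like Ccn2 it was above both WT livers in every WT tumour, as was Col3a1, and neither passed (log2 fold changes 2.78, adjusted p = 0.061, and 2.29, adjusted p = 0.083). In WT tumours against WT liver, libraries did not overlap for 4 higher markers (Acta2, Col1a1, Col3a1, Reln) and 2 lower ones (Dcn, Lrat), beside 19.6% and 17.6% of all genes. Lrat gave -1.31 (SE 0.56, adjusted p = 0.18). The list's median in that comparison was 0.79, with 7 of 10 above 0. Between KO and WT tumours 0 were higher and 2 lower (Acta2 and Reln), beside 3.25% and 1.27% of all genes. Without KO tumour 2 the counts were 1 higher and 0 lower. No marker of this list was at 0 throughout a group. In bulk tissue, fewer cells of a type and less RNA per cell cannot be told apart.

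The 10 endothelial markers had no call in any comparison, where at most 8.34% of all genes passed. Their sums were 305 to 391, 315 to 364, 318 to 411 and 312 to 370 CPM in the same order. The 10 macrophage markers summed to 272 to 277, 282 to 428, 278 to 420 and 322 to 513 CPM. They had 1 call, Marco, higher in KO than in WT tumours, beside 3.25% of all genes. The 8 cholangiocyte markers had sums of 98.1 to 125 CPM in WT liver, 68.8 to 83.9 in KO liver, 275 to 510 in WT tumours and 59.9 to 292 in KO tumours. Of these markers 2 were higher in WT tumours (Spp1, Tspan8) and 1, Sox9, was lower in KO than in WT tumours, beside 3.64% and 1.27% of all genes. Their keratins Krt7 and Krt19 stayed at or under 1.44 CPM in all 10 libraries. The 4 tested mesothelial markers had no call in any comparison, where at most 8.34% of all genes passed. The list summed to at most 22.6 CPM, in a WT tumour. Of the 8 hepatocyte markers 3 were higher (Alb, Apoa1, Serpina1a) and 2 lower (Pck1, Cps1) in WT tumours against WT liver, beside 3.64% and 4.7% of all genes. Those 3 were lower in KO than in WT tumours, beside 1.27% of all genes. The part of these cell types in the level of Ccn2 was not tested.

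**Figure D3:**
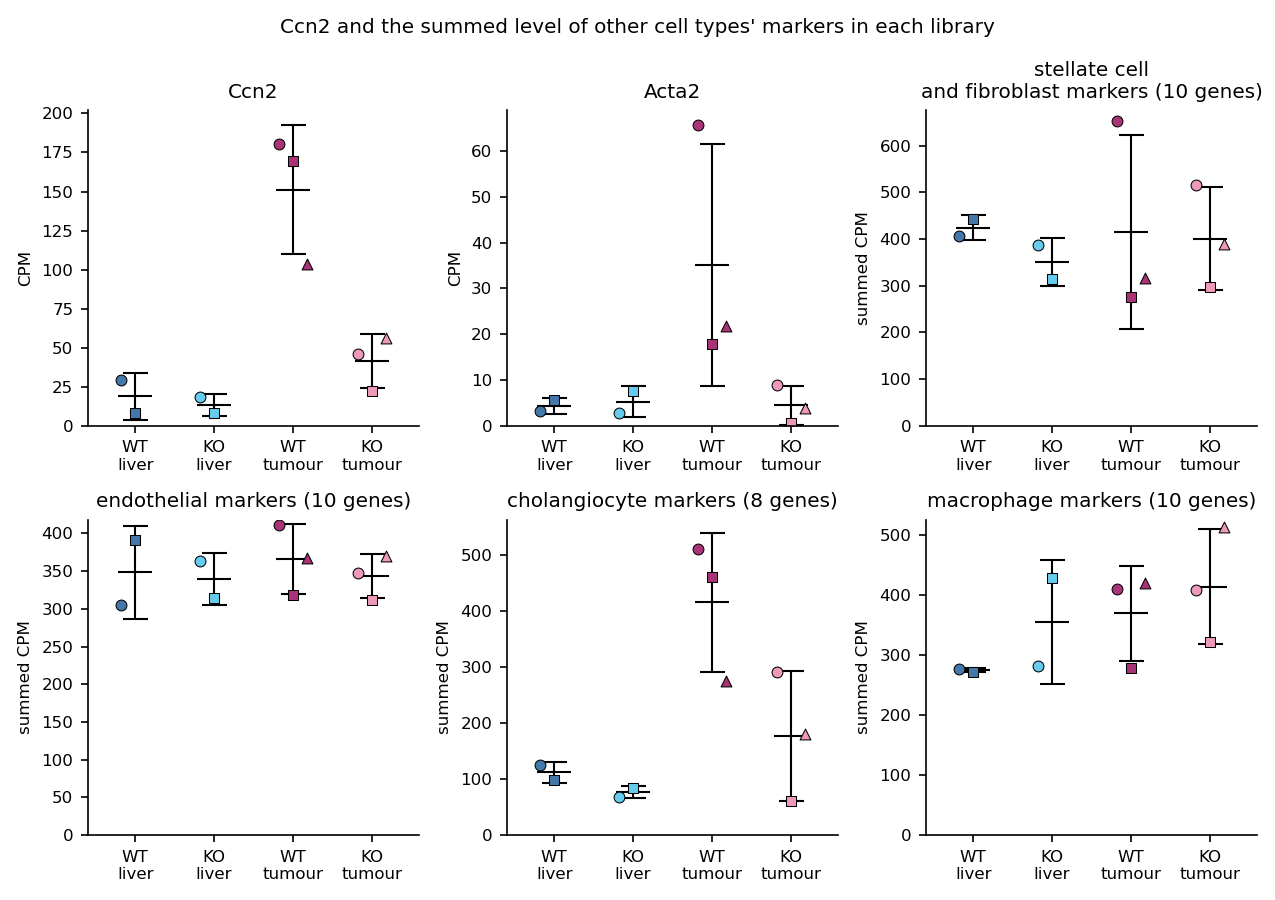
CPM of Ccn2 and Acta2 and summed CPM of 4 lists of cell type markers (vertical axes, from 0) in each library by group, with the mean and SD in black. Ccn2 and Acta2 are highest in the 3 WT tumours, and the cholangiocyte sum is 275 to 510 CPM there. The stellate and endothelial sums overlap between liver and tumours in either genotype. The macrophage sums overlap in KO mice, but in WT mice the livers (272 to 277 CPM) lie just below the tumours (278 to 420).

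The transcriptional effectors of the pathway, Yap1 and Tead1 among them, gave no call among the 7 of 10 tested (Vgll1, Vgll2 and Tead2 were too low). Over all genes 8.34% passed in WT tumours against WT liver, and fewer in each other comparison. Wwtr1, which encodes TAZ, the paralogue of YAP, came closest: it stood at 22.9 and 34.1 CPM in the WT livers, 27.2 and 15.2 in the KO livers, 56.9, 61.5 and 49.6 in the WT tumours and 31.8, 32.2 and 29.0 in the KO tumours. All WT tumours lay above all other libraries. It gave 0.97 (SE 0.31, adjusted p = 0.067) on the log2 scale in WT tumours against WT liver and -0.85 (SE 0.27, adjusted p = 0.10) in KO against WT tumours. Tead4, another TEAD factor, had 1 and 0 counts in the WT livers, 0 and 0 in the KO livers, 0, 0 and 9 in KO tumours and 3.50 to 6.35 CPM in WT tumours (adjusted p = 0.14 in WT tumours against WT liver and 0.28 in KO against WT tumours).

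Of the 22 genes of the kinase cascade and its scaffolds, Lats2 among them, Rassf1 and Mob1b passed the test. Rassf1, a scaffold of the MST kinases, stood at 8.48 and 8.39 CPM in the WT livers, 14.4 and 11.2 in the KO livers, 28.0, 18.7 and 25.5 in the WT tumours and 15.0, 14.7 and 17.1 in the KO tumours. The WT tumours exceeded the WT livers (log2 fold change 1.51, SE 0.39, adjusted p = 0.023), a call lost without WT liver 1 (0.12), WT liver 2 (0.12), WT tumour 1 (0.076) or WT tumour 3 (0.066). The list's median in that comparison was 0.38, with 1 of 22 higher and 0 lower, beside 3.64% and 4.7% of all genes.

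Mob1b, the adaptor that activates LATS kinases, was high in WT liver and in KO tumours. It stood at 33.2 and 35.1 CPM in the WT livers, 18.5 and 11.6 in the KO livers, 15.3, 13.7 and 20.3 in the WT tumours and 37.0, 57.8 and 52.1 in the KO tumours. The KO tumours were above every other library, and the WT livers were above the KO livers and the WT tumours. In KO tumours it was 1.57 higher than in WT tumours on the log2 scale (SE 0.29, adjusted p = 0.0046), where 3.25% of all genes were higher. The interaction was 2.75 (SE 0.46, adjusted p = 0.0048), where 1.22% of all genes were called in that direction. Neither call was lost under any alternative run. The 2 tumour-to-liver differences did not pass on their own (-1.05 in WT mice, adjusted p = 0.053, and 1.70 in KO mice, adjusted p = 0.083).

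Of the 16 junction proteins that bind YAP or LATS, Amotl2 and Ajuba among them, Limd1 passed in 2 comparisons. It was higher in WT tumours against WT liver, beside 3.64% of all genes, and lower in KO against WT tumours, beside 1.27%. This LIM protein, a relative of Ajuba, stood at 30.5 and 42.8 CPM in the WT livers, 47.6 and 53.8 in the KO livers, 120, 97.4 and 83.4 in the WT tumours and 51.9, 31.0 and 55.3 in the KO tumours. WT tumours lay above every other library. The log2 fold change was 1.45 in WT tumours against WT liver (SE 0.30, adjusted p = 0.0065), lost without WT liver 1 (0.077), and -1.12 in KO against WT tumours (SE 0.26, adjusted p = 0.020), lost without WT tumour 1 (0.098), WT tumour 2 (0.059) or KO tumour 2 (0.083). The interaction was -1.59 (SE 0.41, adjusted p = 0.073). Libraries of the list's members did not overlap for 8 of 16, all higher, in WT tumours against WT liver, beside 19.6% of all genes, and for 7 of 16, all lower, in KO against WT tumours, beside 10.9%. The list was chosen with earlier results of these data known, so these counts are not an independent comparison with all genes.

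A signature of 22 YAP targets, of which 20 were tested, had 2 higher and 0 lower in WT tumours, where 3.64% of all genes were higher and 4.7% lower. They were Ccn2 and Ccdc80, an extracellular matrix protein. Every member but Yap1 and Tead1 belongs to the signature, so its counts and median are not separate from those of the members. Ccdc80 stood at 2.70 and 5.30 CPM in the WT livers, 11.7 and 8.92 in the KO livers, 29.0, 17.9 and 12.3 in the WT tumours and 14.6, 10.8 and 12 in the KO tumours. The log2 fold change in WT tumours was 2.30 (SE 0.54, adjusted p = 0.014), lost without WT liver 1 (0.11) or WT tumour 1 (0.064). The signature's median was 0.86, against 0.09 over all genes, and 12 of 20 were higher without overlap, beside 19.6% of all genes. It was likewise chosen with earlier results of these data known, so these values are not an independent comparison with all genes.

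In KO against WT tumours, where 1.27% of all genes were lower, the signature had 0 higher and 2 lower, Ccn2 and Myof, with a median of -0.60 against -0.03 over all genes. Myof, the membrane repair protein myoferlin, stood at 4.71 and 11.9 CPM in the WT livers, 2.35 and 6.66 in the KO livers, 25.6, 33.6 and 17.6 in the WT tumours and 8.48, 4.33 and 6.35 in the KO tumours. Its log2 fold change was -2.00 (SE 0.53, adjusted p = 0.042), a call lost on leaving out any 1 of the 6 tumour libraries (adjusted p = 0.057 to 0.19). Without KO tumour 2 no gene of the signature passed in this comparison, and lower calls over all genes went from 201 to 114.

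Further genes described as YAP targets in liver or other tissue, 19 of 20 tested, gave 5 higher and 0 lower in WT tumours, beside 3.64% and 4.7% of all genes, with a median of 2.76 against 0.09 over all genes. This list too was chosen with earlier results of these data known, so its counts and median are not an independent comparison with all genes. Cyclin D1 (Ccnd1), which drives entry into the cell cycle, stood at 14.7 and 6.24 CPM in the WT livers, 17.8 and 17.3 in the KO livers, 79.1, 63.5 and 69.8 in the WT tumours and 33.9, 10.5 and 35.1 in the KO tumours. Its increase over WT liver in WT tumours (2.76 on the log2 scale, SE 0.50, adjusted p = 0.0023) and that of its kinase partner Cdk6 (1.5, SE 0.24, adjusted p = 0.0011) held under every alternative run. The third gene by p-value was Itgb2, a leukocyte integrin (3.74, SE 0.93, adjusted p = 0.020), lost without WT liver 1 (0.13), without WT tumour 1 (0.077) or with only the groups compared (0.054). Spp1, the secreted protein osteopontin (3.33, adjusted p = 0.024), also passed, and its call was lost without WT liver 2 (0.13) or WT tumour 1 (0.090).

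In KO against WT tumours 1 of these 19, Sox9, was lower, beside 1.27% of all genes. Sox9, a transcription factor of bile duct cells, stood at 102 and 78.8 CPM in the WT livers, 51.0 and 54.8 in the KO livers, 121, 107 and 108 in the WT tumours and 67.6, 38.3 and 49.0 in the KO tumours. The KO libraries of either tissue were all below the WT ones. The log2 fold change between tumours was -1.12 (SE 0.23, adjusted p = 0.0099), lost without KO tumour 3 (0.057), and between livers -0.77 (SE 0.28, adjusted p = 0.62). Areg, an EGF receptor ligand, had 90, 48 and 62 counts in WT tumours and none in the 7 other libraries, at least 21.5-fold higher than in WT liver and at least 18.5-fold higher than in KO tumours at a limit of 3 counts, without passing the test (adjusted p = 0.093 and 0.072).

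**Figure D4:**
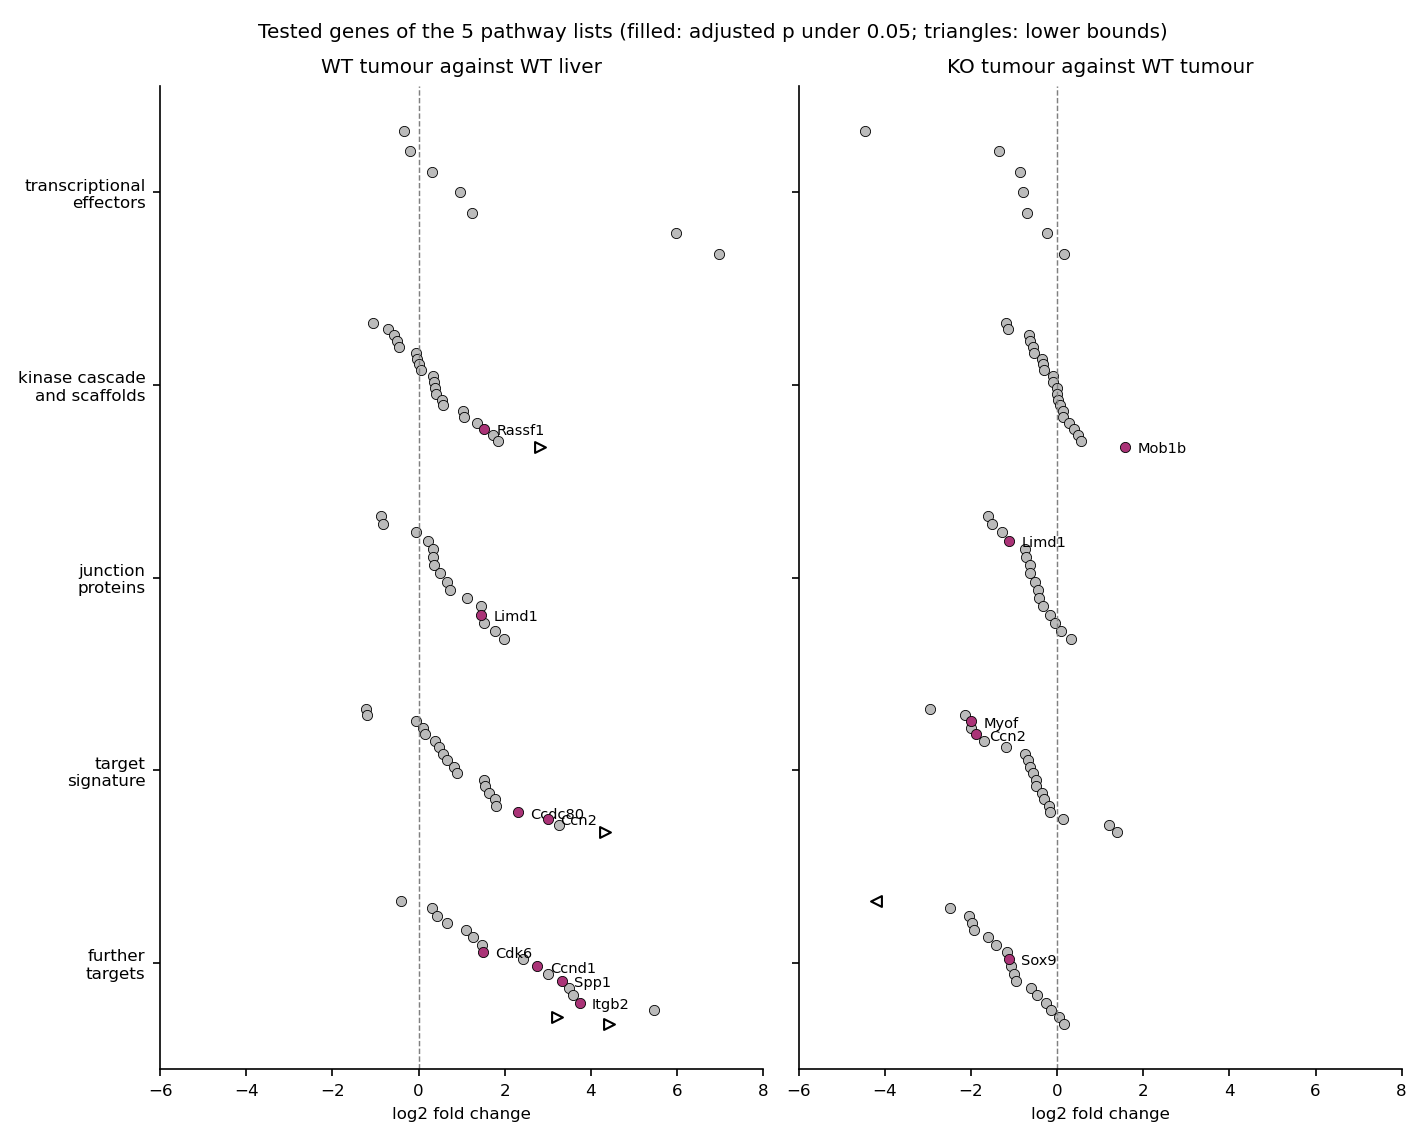
Log2 fold change (horizontal axes) of the tested genes of the 5 pathway lists reported here, in WT tumours against WT liver and in KO against WT tumours; filled, named points passed edgeR's test and open triangles are lower bounds against a group with no counts. The named points lie to the right of 0 in the first panel and, except for Mob1b, to the left in the second.

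No gene of these 5 lists passed edgeR's test in KO tumours against KO liver or in KO against WT liver. Over all genes 0.0759% and 0.00632% passed in these comparisons, so the absence of calls says little about the lists. Mob1b was the call in the interaction, where 1.59% of all genes passed. Genes with the smallest p in each list are given here as log2 differences, none of which passed. In KO tumours against KO liver Mob1b and Map4k5, a kinase upstream of LATS, stood at 1.70 (adjusted p = 0.083) and 1.14 (0.52). The angiomotin Amot, which binds YAP at junctions, had 1.60 and 0.567 CPM in KO liver and 11.8, 9.77 and 7.50 in KO tumours, so that all KO tumours were above both KO livers, and gave 3.13 (SE 0.78, adjusted p = 0.17). Mpp5, a polarity protein of tight junctions, gave 0.84 (adjusted p = 0.47). In the signature these were Ccn2 and Crim1 (0.56, adjusted p = 0.55), and among the further targets Ect2, an exchange factor needed for cell division, with 0 and 0 counts in KO liver and 32, 10 and 18 in KO tumours (adjusted p = 0.28). The effectors Vgll3, a TEAD cofactor, and Tead4 had at most 1 count in KO liver and at most 38 and 9 in KO tumours (adjusted p = 0.55 and 0.57).

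In KO against WT liver Mob1b stood at -1.18 (adjusted p = 0.49) and Map4k3, another kinase upstream of LATS, at -0.75 (0.71). Amot gave -2.76 (adjusted p = 0.47), Patj, a partner of Mpp5 at tight junctions, 1.39 (0.72), Ccdc80 1.37 (0.65), Ccn1 -0.92 (0.72), Itgb2 2.68 (0.60) and Tnfrsf1b, a receptor for tumour necrosis factor, 1.51 (0.62), while the effectors with the smallest p were the members Yap1 and Tead1 (0.72 each). In the interaction the junction proteins with the smallest p were Limd1 and Patj (-2.90, adjusted p = 0.22). In the signature they were Ccdc80 (-2.03, 0.22) and Ccn2, among the further targets Cdk6 (-1.20, 0.099) and Ccnd1 (-2.16, 0.13), and among the effectors Wwtr1 (-0.42, 0.77) and Tead1 (-0.43, 0.90).

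**Figure D5:**
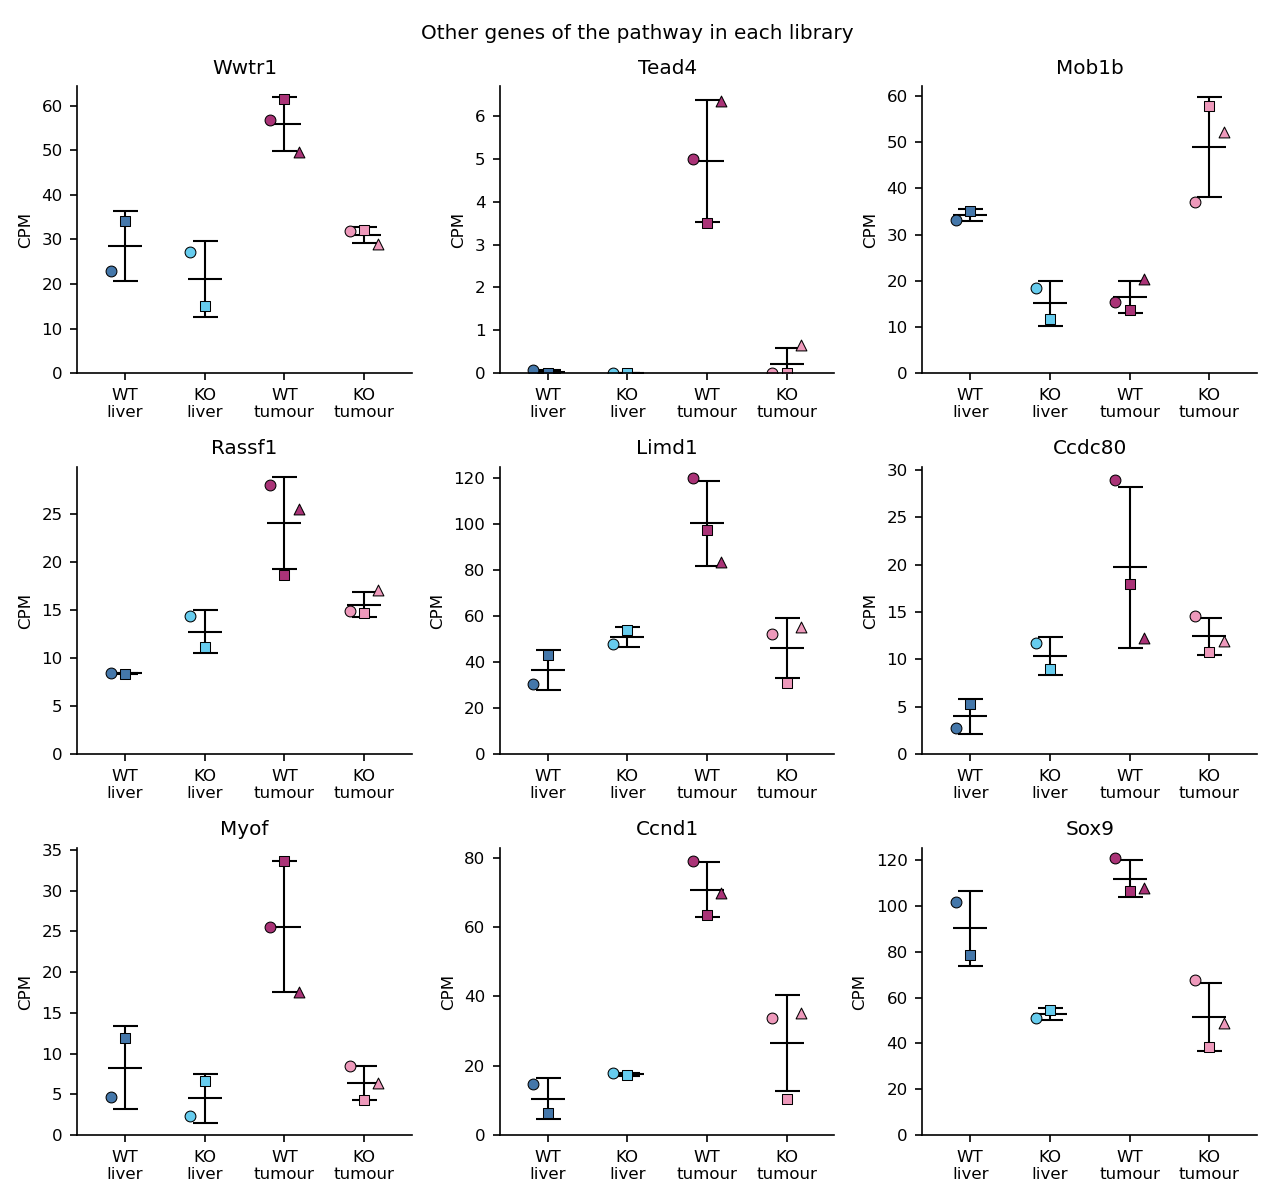
CPM (vertical axes, from 0) of 9 further pathway genes in each library by group, with the mean and SD in black. Wwtr1, Tead4, Rassf1 and Limd1 are highest in WT tumours, and Mob1b is highest in KO tumours (37.0 to 57.8 CPM) and lowest in KO liver and WT tumours.

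Genes whose profile was most like that of a member were found by the root mean square difference of log2 CPM, each gene centred on its own mean, over 10 libraries and 7179 genes of at least 10 CPM. For Ccn2 they were Rhoc (0.51), Arhgef2 (0.51) and Rogdi (0.52), beside a median of 1.60 over all genes. Rhoc stood at 14.4 to 26.4 CPM in the 4 livers, 138 to 145 in the WT tumours and 105, 29.4 and 73.6 in the KO tumours. For Yap1 they were Ppig, Mgea5 and Yy1 (0.14 each, against a median of 0.48), and for Ccn1 they were Dr1 (0.20), Ubr1 (0.26) and Cldn2 (0.27), against 0.73. The nearest genes to Yap1 and Ccn1 thus lay closer to their member than those of Ccn2 did, whose own spread was larger (1.54, against 0.23 for Yap1 and 0.58 for Ccn1).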

How the data were processed

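RNA from 10 livers or liver tumours was sequenced with a strand-specific 3' tag kit (QuantSeq), per the labels' protocols. The authors deposited whole-number read counts per gene, not normalized; BWA, featureCounts and mm10 are named, per the submitters' processing notes. Versions, annotation, strand setting and the handling of multiply matching reads were not given in the sources used here, so overlapping genes may share reads.

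Of 39056 identifiers, 38872 received a symbol. Library totals were 12408749 to 18081487 counts, and 3 counts, taken as the limit for a gene with none, equal 0.156 to 0.231 CPM. In edgeR 4.0.16 (R 4.3.3) filterByExpr kept 15811 genes, TMM scaled the libraries, and 1 quasi-likelihood fit with group terms used all 10 libraries (6 residual degrees of freedom). The contrasts were 4 comparisons of groups and the difference between the tumour-to-liver effects (the interaction). SEs were derived from fold changes and F statistics. DESeq2 1.42.0, other scalings and filters, only the groups compared, a replicate block and leaving out each library were alternatives.

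Replicate numbers are shared between groups in the labels, but deviations of same-numbered libraries correlated at -0.074 to 0.10, so they were not treated as pairs. No replicates were duplicates (chi-square per degree of freedom 39.8 to 94.9).

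On simulated data (15811 genes, 200 changed 4-fold) the model recovered 86.5% with 3.35% false calls in WT tumours against WT liver, and 85.0% with 5.03% in KO against WT tumours. The changed genes were drawn from those with a mean of at least 10 CPM, and no smaller change was simulated. Ankrd1 and Ajuba, at means of 2.53 and 5.94 CPM, lie below that limit, so recovery at their levels was not measured.

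The members and the 13 other lists (158 genes in all, 149 tested) were chosen with earlier results of these data known. Named were all members, up to 3 called genes per list with the smallest p (otherwise the lowest 2 of a pathway list) and the 3 profiles most like Yap1, Ccn1 and Ccn2. Areg, Col1a1, Col3a1, Lrat, Actg1 and Actb, and Acta2 and Dcn where not called, were singled out after their values were seen, as were Afp and Alb. One listed gene that this rule would name is counted in its list but not reported here. Motifs were searched in RefSeq promoter windows (GRCm38.p6); positions are from GENCODE on GRCm38.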

Additional observations from a re-analysis of the deposited data

Results flagged for a closer look

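Mob1b, the LATS adaptor, differed between the genotypes in its tumour-to-liver difference: the KO value minus the WT value was 2.75 on the log2 scale (SE 0.46, edgeR adjusted p = 0.0048). The WT livers averaged 34.2 ± 1.29 CPM (SD, n = 2), the KO livers 15.1 ± 4.89 (n = 2), the WT tumours 16.4 ± 3.47 (n = 3) and the KO tumours 49.0 ± 10.8 (n = 3). All 3 WT tumours lay below both WT livers, and all 3 KO tumours lay above both KO livers. The value was 2.62 without KO tumour 2 (adjusted p = 0.016), and 2.46 to 3.14 over all alternatives run.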

How the results depend on the processing

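Over 45 member values (9 members in 5 contrasts) and 756 recomputed values, 712 kept their direction and their side of the threshold; 37, in 16 of the 45, changed sign, none of them past the threshold in either analysis. The number of members that passed stayed 1 in WT tumours against WT liver and 0 in KO against WT liver. It became 1 (Ccn2) in KO tumours against KO liver and 1 (Ccn2) in the interaction with no filter beyond 1 count, and ranged from 0 to 1 in KO against WT tumours when a library was left out; the cause was not tested. With a replicate block Ccn2 gave 3.25 in WT tumours against WT liver (adjusted p = 0.00056) and -1.99 in KO against WT tumours (0.0060), and no call of a member changed; the block ended the calls of Rassf1 (0.061), Myof (0.066), Nr4a1 (0.066) and Klf6 (0.061).

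With total counts alone, Amotl2 in WT tumours against WT liver was 0.20 (0.019 with the replicate block), and in KO tumours against KO liver Ankrd1 was 0.037 and Axl 0.066 (Axl 0.025 with the block). Ankrd1 in KO against WT liver was -0.0050 with DESeq2 size factors, -0.0073 with a mean of at least 1 CPM, -0.0020 with DESeq2 and -0.015 with only the groups compared.

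When each library was left out in turn, values that changed sign ranged as follows in KO tumours against KO liver: Ajuba -0.80 to 0.50, Amotl2 -0.46 to 1.68, Ankrd1 -2.18 to 7.51, Axl -0.18 to 0.11 and Lats2 -0.017 to 0.42. In WT tumours against WT liver Amotl2 ranged from -0.32 to 0.27 and Ccn1 from -0.38 to 0.98. In KO against WT liver Amotl2 ranged from -1.90 to 0.25, Ankrd1 from -7.67 to 7.66 and Ccn2 from -1.19 to 0.73. In KO against WT tumours Amotl2 ranged from -0.22 to 0.0036 and Axl from -0.42 to 0.29. In the interaction Amotl2 ranged from -0.40 to 1.74, Ankrd1 from -9.35 to 5.98, Ccn1 from -0.47 to 1.01 and Lats2 from -0.41 to 0.044. A group left with 1 library was assumed to vary like the others.

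Counts of all genes moved by over 1.5 times under some settings: in KO tumours against KO liver from 12 higher and 0 lower to 385 and 42 with DESeq2, 342 and 44 with no filter beyond 1 count and 189 and 13 without KO tumour 2, in KO against WT liver from 0 and 1 to 89 and 113 with DESeq2, and in the interaction from 193 and 58 to 465 and 262 with DESeq2. In WT tumours against WT liver they moved from 575 higher and 743 lower to 1274 and 1110 with DESeq2. In KO against WT tumours they moved from 514 and 201 to 826 and 394 with DESeq2 and 746 and 435 with no filter beyond 1 count. Without KO tumour 2 they were 345 and 114 there. Groups of 2 and 3 libraries and a biological coefficient of variation of 71.8% limit what could be seen.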

Other observations

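Immediate early genes, which are switched on within minutes of a stimulus or of tissue handling, were read beside the YAP targets because several respond to the same signals. Of 13 tested, 3 were higher and 0 lower in WT tumours against WT liver, beside 3.64% and 4.7% of all genes: Junb, an AP-1 subunit, Nr4a1, an orphan nuclear receptor, and Klf6, a zinc finger factor. Junb stood at 84.9 and 54.4 CPM in the WT livers, 82.6 and 69.0 in the KO livers, 196, 196 and 181 in the WT tumours and 116, 63.0 and 128 in the KO tumours. All WT tumours were above all other libraries, and the log2 fold change against WT liver was 1.46 (SE 0.30, edgeR adjusted p = 0.0067), lost without WT liver 2 (0.084). Nr4a1 had 1 and 2 counts in WT liver, 97 and 33 in KO liver, 27 to 178 in WT tumours and 17 to 44 in KO tumours, so that the WT livers alone were low. Its call in WT tumours (adjusted p = 0.026) was lost with the replicate block (0.066) and without WT liver 1 (0.14) or 2 (0.10), WT tumour 1 (0.096) or 2 (0.053). Klf6 was lowest in WT liver 1 (2.76 CPM, beside 22.4 in WT liver 2), and its call (2.17, adjusted p = 0.041) was lost without WT liver 1 (0.11) and without any of the WT tumours or KO tumour 1 or 3 (0.056 to 0.099), with the replicate block (0.061) and with only the groups compared (0.094). The count was 1 without WT tumour 1, 2 without any of the other WT tumours or KO tumour 1 or 3, and 5 without KO tumour 2. Higher calls over all genes went from 575 to 457, 365 and 403 without WT tumour 1, 2 and 3. They went to 536, 692 and 466 without KO tumour 1, 2 and 3, so the list's count moved with that of all genes. Between KO and WT tumours 0 of 13 passed in edgeR, with 4 at an unadjusted p under 0.05, beside 4.52% and 14.9% of all genes.

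Of 11 tested targets of serum response factor, which reads the state of the actin skeleton, 1 was higher and 0 lower in WT tumours, beside the same shares of all genes: Tpm1, a tropomyosin, at 29.5 and 26 CPM in the WT livers, 39.8 and 21.5 in the KO livers, 116, 82.2 and 108 in the WT tumours and 56.3, 22.7 and 63.7 in the KO tumours (log2 fold change 1.87, SE 0.40, edgeR adjusted p = 0.0082). The call was lost without WT liver 2. The count was 2 without KO tumour 1 or KO tumour 2, where higher calls over all genes went from 575 to 536 and 692. In KO against WT tumours 1 of 11, Acta2, was lower, beside 1.27% of all genes. Without KO tumour 2 the count was 0 of these targets, and lower calls over all genes went from 201 to 114. Actg1, the cytoplasmic gamma-actin, had 0 counts in all 10 libraries, where Actb, another actin of the list, stood at 1658 to 2731 CPM. Whether reads of Actg1 were lost in counting was not tested, so its 0 counts are not read as absence of the transcript.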
